A study of Mus musculus with 2 samples.

Results

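The 10 genes described here, Plekhm1, Snx10, Rab7, Rab27a, Rab3d, Rab13, Rab38, Rab44, Syt7 and Vps35, encode proteins of vesicle trafficking to the ruffled border of the osteoclast. They were chosen by name, with earlier results of these data known. They are 10 of the 55450 genes of the GENCODE vM21 mouse annotation. RNA was sequenced from bone marrow cells of WT mice, cultured with M-CSF (M, 1 library) or with both M-CSF and RANKL (MR, 1 library). M-CSF, the growth factor of the macrophage lineage, was given at 20 ng/mL to both cultures, and RANKL, the cytokine that drives osteoclast differentiation, was given at 100 ng/mL to MR after 2 days with M-CSF. The labels put RANKL at 2 days, the bone marrow culture method puts it at 3 days, and the day of harvest for sequencing is not named. Strain, age and the number of mice behind each culture are not given in the sources used here. With 1 library per condition no difference was tested, and each ratio describes these libraries.

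The osteoclast dissolves bone beneath a folded patch of plasma membrane, the ruffled border. The membrane and its proton pumps and proteases are delivered there by late endosomes and secretory lysosomes, which move along microtubules, dock and fuse with the bone-facing membrane. Rab GTPases mark each class of vesicle and recruit adaptors, tethers and motors in their GTP-bound state, whereas sorting nexins and retromer take membrane proteins back out of endosomes.

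Values are in TPM, a level scaled to transcript length and to the library total, summed over the loci that StringTie assembled from the reads in each gene. Ratios are MR to M, and 1 was added to both levels before the log2 ratio was taken. In MR, Snx10 was 10.2 times as high as in M, and Rab38 had a TPM of 72.3 where no locus was assembled in M. Rab7, Plekhm1 and Vps35 were 1.46, 1.27 and 1.12 times as high, Rab44 and Rab13 lay within counting error of equal levels, and Rab3d and Rab27a were lower, at 0.562 and 0.466 times the level of M. Syt7 had no assembled locus in either library. Of the 9 genes with a value, 2 (22.2%) had a log2 ratio above 1 and 0 had a log2 ratio below -1. Over all 13449 genes that reached a TPM of 1 in M or MR, the shares were 21.3% and 13.2%. The median log2 ratio of the 9 genes was 0.17 and that of all genes 0.21, so that the set as a whole did not stand apart from the other genes. Median-of-ratios scaling, which centres the bulk of the genes, shifts log2 ratios by -0.19 before 1 is added, and by less for low levels once it is added.

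**Figure D1:**
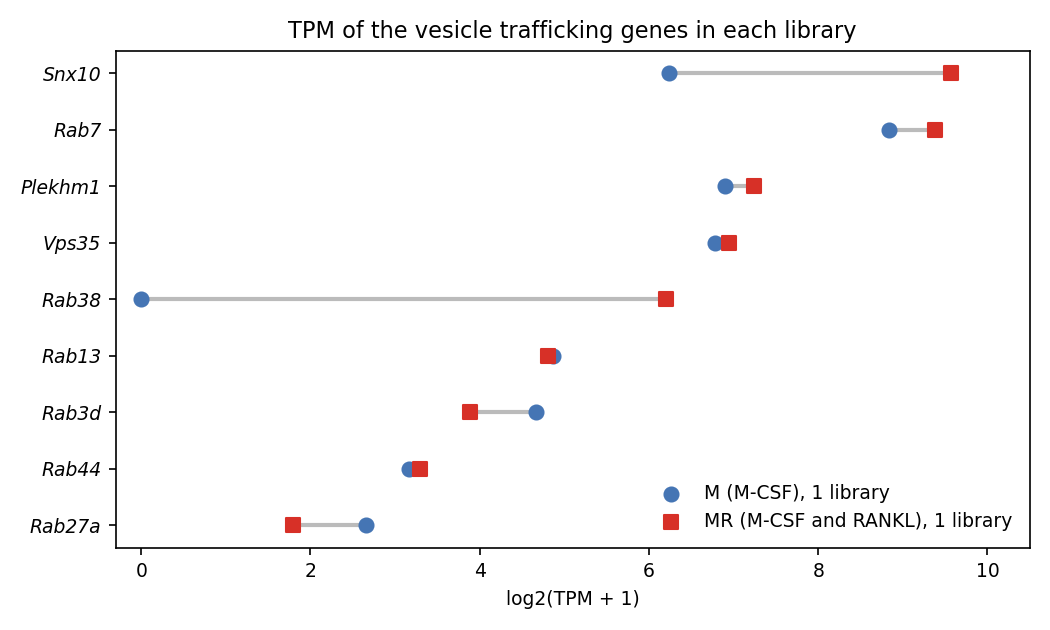
Level of each of the 9 genes with an assembled locus, as log2(TPM + 1), in M (circles) and MR (squares), 1 library each and without error bars. Snx10 and Rab38 lie far to the right in MR (TPM 757.5 and 72.3), Rab3d and Rab27a lie to the left of M, and the other 5 genes lie close together in both libraries.

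The cultures carried the marks of their labels. All 8 osteoclast genes (Acp5, Ctsk, Mmp9, Oscar, Dcstamp, Ocstamp, Calcr, Atp6v0d2) had a log2 ratio above 1, with a summed TPM of 120.6 in M against 24835 in MR, and Oscar, Dcstamp, Ocstamp and Calcr were listed at 0 in M. The 6 macrophage genes summed to 5306 in M against 3297 in MR, with none at 0 and a median log2 ratio of -1.53. Of the 6, 3 (50%) were below -1 and 0 above 1, beside 13.2% and 21.3% of all genes. In MR 5 were lower, among them Cd68 at 2607 in M against 2171 in MR. Csf1r was the 1 that was higher, at 697.2 in M against 871.9 in MR. Genes of other marrow cells were read in both libraries. The 8 neutrophil genes summed to 1365 and 953 with none past 1 and none at 0, 3 of 6 lymphoid genes to 7.46 and 7.04, 2 of 4 erythroid genes to 3.35 and 2.11, 1 of 5 mast cell and basophil genes to 3.03 and 0, and 5 of 6 stromal genes to 19.4 and 24.8. The part of these cells in the values below was not tested, and fewer cells of a type and less RNA per cell cannot be told apart in a bulk sample. The aligned bases were 3.63 Gb in M and 2.98 Gb in MR. Of the summed TPM of the assembled loci, 95.4% and 96.9% was given to a gene.

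Snx10, a sorting nexin with a phosphoinositide-binding PX domain, is needed for the ruffled border, and its loss causes osteopetrosis. It lies on chromosome 6 at 51523901-51590679 (GRCm38, + strand, 9300 exon bases). Its TPM was 74.6 in M against 757.5 in MR. The ratio of 10.2 has a 95% counting interval of 9.16 to 11.3, from about 404 and 3241 read pairs, and the log2 ratio was 3.33. Snx10 stood at the 86.1 percentile of all genes in M and at the 98.5 percentile in MR. Among 29 sorting nexins with a value it was 8th in M and 1st in MR. It made up 3.56% of their summed TPM in M and 35.3% in MR, while the sum itself was 2097 and 2149. Without Snx10 the sum was 2022 in M against 1391 in MR, so that the share and the total in MR rest on the TPM of Snx10.

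The size of the Snx10 ratio, and with it that share, depends on the column that was read. The listed coverage of its locus, the read depth per base, was 114.2 in M against 327.7 in MR. From the FPKM of the same locus, depths of 125.2 and 1004 would follow. Per aligned Gb the coverage was 31.5 and 109.9, a ratio of 3.49 and a log2 ratio of 1.77, so that Snx10 was above 1 on both readings but by different amounts. The locus ran over the whole gene in both libraries. It held 99.9% of the exon bases in M and 99.3% in MR, and its 5′ end lay 12 bases inside the gene in M and 55 bases inside in MR.

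The 5′ end of Snx10 has 3 promoter windows of 300 bases in RefSeq (GRCm38.p6), each from 250 bases before a start site to 50 after it. They were searched on both strands for letters bound by factors of the RANKL response, TGANTCA for AP-1, TGGAAA for NFAT, CACGTG for MITF and other E-box factors, and AGGAAGT for PU.1. The window of the first start site, 51523903, 10 bases before the 5′ end of the locus in M, held 0 matches. The next windows held 1 match each, which lie 73 and 349 bases downstream of the 5′ end of the locus in M, inside the extent of the locus. They are shown with 10 bases on either side, because Snx10 had the highest TPM of the set in MR. By listed coverage Rab7 was higher there, at 848.4 against 327.7 for Snx10. The capitals mark the match.
Snx10 AP-1, chr6:51523976-51524002, + strand: cgccgcgcctTGAGTCAgcaaactccg
Snx10 NFAT, chr6:51524252-51524277, + strand: gtgggattgaTGGAAAaggccgcgga
Of 32851 mouse promoter windows of the same length, 7.81% hold the AP-1 letters and 21.4% the NFAT letters, so that a match is common and is no more than a description. The shares were 7.15% for the E-box and 9.35% for PU.1. Windows were found for 6 of the 10 genes, 11 in all, and those of Plekhm1, Rab3d and Rab7 held 0 matches to the 4 motifs, whereas those of Rab13 held NFAT and PU.1 letters and a later window of Rab27a held NFAT and E-box letters.

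Rab7 marks late endosomes and lysosomes and stands at the ruffled border of the resorbing osteoclast. The gene lies on chromosome 6 at 87999106-88045270 (- strand, 2610 exon bases). Its TPM was 456.4 in M against 666.8 in MR, a ratio of 1.46 with a counting interval of 1.35 to 1.59 and a log2 ratio of 0.55. It was the most abundant of 49 Rab genes in both libraries, with 12.6% of their summed TPM in M and 19.4% in MR. Its locus held 98.0% of the exon bases in M and 99.7% in MR. Of the 100-base stretches of its transcript, 19.2% also occur in the pseudogene Rab7-ps1, and reads from these stretches cannot be placed between the copies by sequence alone. No other gene of the set shared such a stretch with another gene.

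Plekhm1 is an adaptor that binds GTP-bound Rab7 and the HOPS tether at lysosomes, and loss of Plekhm1 causes osteopetrosis. Its gene is on chromosome 11 at 103364275-103412687 (- strand, 5968 exon bases). Its TPM was 118.4 in M against 150.3 in MR, a ratio of 1.27 with a counting interval of 1.21 to 1.33 and a log2 ratio of 0.34. The locus reached within 13 bases of both annotated ends in each library. The log2 ratio was 0.15 after median-of-ratios scaling, so that Plekhm1 was higher in MR under every scaling used, by less than the threshold.

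The regulators and effectors of Rab7 and the partners of Plekhm1 lay on both sides of equal levels. Of 13 such genes 12 had a value. While 34.5% of all genes had a log2 ratio past 1 in either direction, none of the 12 did. The counting interval of the ratio lay above 1 for 6 of them, below 1 for 4 and held 1 for 2. Their median of 0.11 turned to -0.17 by coverage per aligned Gb and to -0.08 after median-of-ratios scaling, so that no direction can be given for the group. Tbc1d15, a GTPase-activating protein for Rab7, had a TPM of 22.9 in M against 45.2 in MR. Ccz1, part of the exchange factor that loads Rab7 with GTP, had 66.1 and 93.0, and its partner Mon1a had 16.1 and 14.1. Rubcn, a Rab7 effector in autophagy, had 21.1 and 12.1, and Osbpl1a, which ties Rab7 to cholesterol at late endosomes, had 12.3 and 6.48. The log2 ratio of Rubcn was -0.76 by TPM and -0.11 by coverage, and that of Osbpl1a was -0.82 by TPM and ran from -1.67 to -0.78 over the alternatives.

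The tethers that Plekhm1 recruits followed no common direction either. Of 8 HOPS and CORVET genes, with a median of -0.12, 1 (12.5%) was above 1 and 0 were below -1, beside 21.3% and 13.2% of all genes. Vps39, which binds Rab7 within HOPS, had a TPM of 36.9 in M against 91.4 in MR. Its log2 ratio was 1.28 by TPM and 0.86 by coverage. Vps18 had 50.5 and 74.8, and Vps33a, the subunit that binds SNAREs, had 74.1 and 39.5. Arl8b, the lysosomal GTPase that moves lysosomes outward on kinesin, had 117.1 in M against 213.9 in MR. Its paralog Arl8a had 195.6 and 134.3, a log2 ratio of -0.54 by TPM and -0.11 by coverage. While 34.5% of all genes were past 1 in either direction, none of the 10 genes of Arl8, the BORC complex and kinesin was. Their median was 0.08 by TPM and -0.10 after median-of-ratios scaling.

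Vps35 is the core subunit of retromer, which returns receptors from endosomes. The gene lies on chromosome 8 at 85260392-85299802 (- strand, 8899 exon bases). Its TPM was 109.0 in M against 122.5 in MR, a ratio of 1.12 with a counting interval of 1.06 to 1.20. The log2 ratio was 0.17, and it was -0.02 after median-of-ratios scaling, so that no direction can be given for Vps35. The locus held 96.9% and 96.7% of the exon bases and started 273 and 291 bases inside the annotated 5′ end.

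The other subunits of retromer, its sorting nexins and the actin-nucleating WASH complex were lower in MR in most cases by TPM, although few passed the threshold. Of 15 genes 14 had a value, 1 was higher and 13 were lower, beside 40.5% lower among all genes. The counting interval of the ratio lay below 1 for 9, above 1 for 1 and held 1 for 4, Vps29 among them. Of the 14, 3 (21.4%) were below -1 and 0 above 1, beside 13.2% and 21.3% of all genes, and the median was -0.47, with -0.66 to -0.35 over the alternatives. Vps26a had a TPM of 130.8 in M against 95.4 in MR, and Vps29 had 115.5 and 107.0. Snx5 and Snx2 bend the membrane for retromer. Snx5 was at 351.3 in M against 116.4 in MR, with a log2 ratio of -1.58, and Snx2 was at 371.6 and 189.1, with -0.97. The WASH subunits Washc1 and Washc4 were at 57.9 and 51.7 in M and at 24.3 and 23.7 in MR, but Washc1 had a log2 ratio of 0.15 by coverage, Washc3 turned from -0.04 to 0.35 over the alternatives, and Washc4 had 0.50 when its locus with the most exon bases was read alone. Tbc1d5, a Rab7 inhibitor carried by retromer, was the gene that was higher, at 18.2 and 24.6. The summed TPM of the list was 1759 in M against 1104 in MR.

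**Figure D2:**
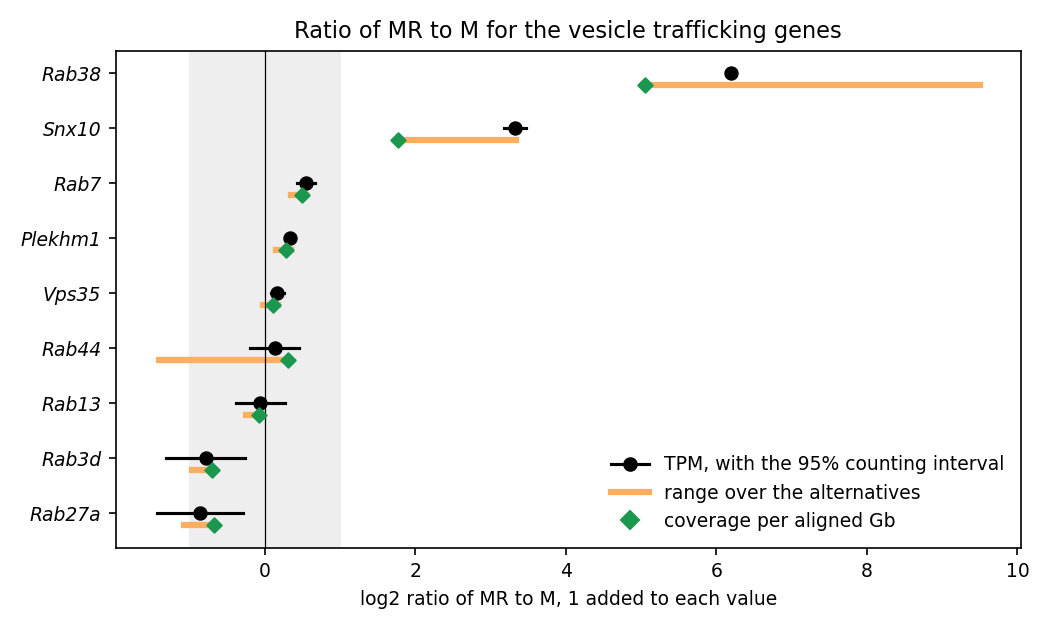
Log2 ratio of MR to M (1 added to each value) for the 9 genes with a value. Black points are TPM with the 95% counting interval (none is drawn for Rab38, listed at 0 in M), orange bars span the values under the alternatives, green diamonds are coverage per aligned Gb, and the grey band spans -1 to 1. Snx10 (3.33) and Rab38 (6.20) lie to the right of the band, and Rab27a (-0.86) and Rab3d (-0.79) lie to the left of 0. The bars of Rab44 and Vps35 cross 0, as do the counting intervals of Rab44 and Rab13.

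The 6 Rab proteins of the set act on different vesicles but share the GTP-binding fold. Their transcripts were compared over 21 coding bases at the switch region that follows the nucleotide, read from GENCODE vM21 on GRCm38. The stretch was found by the amino acid letters WDTAGQE, with E allowed for D and I for T. Most of the shared bases therefore follow from how it was chosen, and no other stretch was compared. The capitals mark the 15 bases that all 6 share.
Rab7, chr6:88005188-88005208, - strand: TGGGACAcaGCcGGtCAaGAa
Rab27a, chr9:73082465-73082485, + strand: TGGGACAcgGCgGGgCAgGAg
Rab3d, chr9:21914964-21915707, - strand, over 2 exons: TGGGACAcaGCaGGcCAgGAg
Rab13, chr3:90222296-90223545, + strand, over 2 exons: TGGGACAcgGCtGGcCAaGAa
Rab38, chr7:88430591-88450488, + strand, over 2 exons: TGGGACAttGCtGGtCAaGAa
Rab44, chr17:29144548-29144568, + strand: TGGGACAcaGCtGGaCAaGAg
Counted from the first base shown, Rab38 differs from Rab7 by C8T, A9T and C12T, and it is the only one of the 6 that differs at position 8. Rab27a differs from Rab7 at 5 bases, Rab3d at 4, and Rab13 and Rab44 at 3. No stretch of 100 bases was shared between them, and the reads of these libraries were 150 bases long.

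Rab38 serves the biogenesis of lysosome-related organelles, best known from the melanosome, together with its close relative Rab32. It lies on chromosome 7 at 88430273-88491572 (+ strand, 1577 exon bases). No locus was assembled in M, and the gene is listed at 0 there, whereas its TPM in MR was 72.3, from about 185 read pairs at a coverage of 95.8. A gene with too few reads for assembly is also listed at 0. For the shortest coding transcript of Rab38, of 579 bases, 3 read pairs would have given a TPM of 0.93 in M. The locus in MR held 91.2% of the exon bases, beginning 22 bases inside the gene and stopping 117 bases short of its end. No fold is given against a level of 0, and the log2 ratio of 6.20 depends on the 1 that was added. With 0.1 added it was 9.50, and by coverage it was 5.05.

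In MR Rab38 was the 14th of the 49 Rab genes and made up 2.10% of their summed TPM. Rab32 had a TPM of 137.7 in M against 103.6 in MR, a log2 ratio of -0.41 by TPM and -0.94 by coverage. By TPM the relative was the more abundant of the pair in both libraries. The genes that work with them in organelle biogenesis lay on both sides of equal levels. Of 17 such genes 16 had a value, with a median of -0.13. Of these 0 were above 1 and 2 (12.5%) were below -1, beside 21.3% and 13.2% of all genes. The counting interval of the ratio lay above 1 for 3, below 1 for 6 and held 1 for 7. Dtnbp1, a subunit of BLOC-1, had 87.3 in M against 33.3 in MR. Hps3, a subunit of BLOC-2, had 27.4 and 12.4, with a log2 ratio of -1.09 by TPM and -0.77 by coverage. Hps1, part of the exchange factor for Rab32 and Rab38, had 22.0 and 37.1, and Ap3d1, of the AP-3 coat, had 104.0 and 163.8.

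Rab27a brings secretory granules and lysosomes to the plasma membrane through effectors such as Unc13d. Its gene is on chromosome 9 at 73044854-73097629 (+ strand, 3879 exon bases). Its TPM was 5.32 in M against 2.48 in MR, from about 89 and 33 read pairs. The level in M was 2.14 times that in MR, with a counting interval of 1.44 to 3.19. The log2 ratio was -0.86, short of -1 because 1 was added to low values. It was -1.07 with 0.1 added and -1.01 after median-of-ratios scaling. The assembled extents differed, with 99.8% of the exon bases in M and 57.8% in MR, where the locus stopped 1636 bases short of the 3′ end. Rab27a stood at the 31.1 percentile of all genes in M and the 15.4 percentile in MR, and its rank among the Rab genes was 36 in M against 42 in MR. Its paralog Rab27b had a TPM of 2.31 in M against 8.40 in MR, a log2 ratio of 1.51 that was 0.10 when its locus with the most exon bases was read alone.

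Rab3d resides on secretory vesicles and is needed for normal bone resorption. The gene lies on chromosome 9 at 21907491-21918192 (- strand, 4196 exon bases). Its TPM was 24.4 in M against 13.7 in MR, from about 95 and 42 read pairs. The level in M was 1.78 times that in MR, with a counting interval of 1.24 to 2.55, and the log2 ratio was -0.79. The loci held 98.8% of the exon bases in both libraries, and they ran past the 3′ end by 272 bases in M and 79 in MR. Rab3d and Rab27a were lower in MR under every alternative, at -0.97 to -0.70 and at -1.07 to -0.68.

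The effectors and regulators of Rab27 or Rab3 were described as a list. Of 18 such genes 12 had a value, and several rest on few read pairs. In MR 9 were higher and 3 lower, beside 59.5% and 40.5% among all genes. Of the 12, 2 (16.7%) were above 1 and 1 (8.33%) below -1, beside 21.3% and 13.2% of all genes. The median was 0.46, beside 0.21 over all genes, and it ran from 0.09 with FPKM to 0.67 with 0.1 added, with 0.26 by coverage. Both genes above 1, Rph3al and Rims2, were listed at 0 in M and had a TPM of 3.12 and 1.61 in MR. Rab3ip, an exchange factor of the Rab3 and Rab8 pathways, had 6.56 in M against 12.4 in MR, a log2 ratio of 0.82 that ran from 0.58 to 1.97 over the alternatives. Unc13d, which primes granules for fusion, had 33.7 and 26.3. Madd, the exchange factor for Rab3 and Rab27, had 55.0 and 23.7, a log2 ratio of -1.18, but its locus also covered Nr1h3, and by coverage the log2 ratio was -0.32.

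Rab13, known from the delivery of junction proteins in epithelia, lies on chromosome 3 at 90213695-90226385 (+ strand, 2300 exon bases). Its TPM was 28.2 in M against 27.0 in MR, a ratio of 0.959 with a counting interval of 0.765 to 1.20. Its log2 ratio was -0.06, and a difference within that interval was not detectable at this depth. The value rests on part of the gene. The locus started 5130 bases inside it in both libraries, at the listed start of the annotation entry Gm45477, and held 48.0% and 48.2% of the exon bases. The listed coverage was 8.62 in M against 6.55 in MR, whereas 47.3 and 35.8 would follow from its FPKM. The listed position of Gm45477 is on GRCm39 and the locus is on GRCm38, so that the shared start is a match of numbers across builds and does not place Gm45477 in this gene. Its part in the value was not tested.

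Rab44 is a large Rab protein with a calcium-binding EF-hand domain ahead of its GTPase domain, known from immune cells and osteoclasts. It lies on chromosome 17 at 29114145-29148980 (+ strand, 5065 exon bases). Its TPM was 7.97 in M against 8.81 in MR, a ratio of 1.11 with a counting interval of 0.886 to 1.38, and its log2 ratio was 0.13. The sum was made of 2 loci in M, at 4.78 and 3.19, and of 3 loci in MR, at 4.72, 1.18 and 2.92. In M the loci left almost no gap, whereas in MR 2 gaps remained, and the GTPase stretch shown above fell into 1 of them. The direction for Rab44 turned with the reading, to -0.04 after median-of-ratios scaling and to -1.41 when the locus with the most exon bases was read alone.

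**Figure D3:**
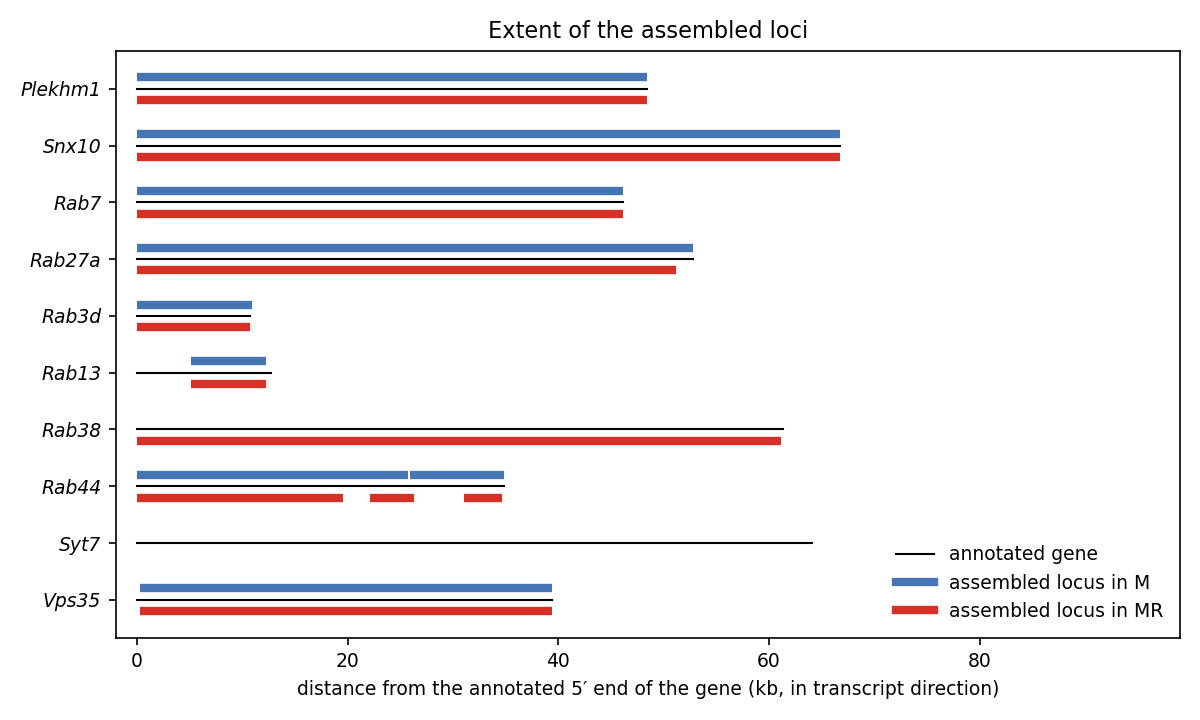
Assembled loci of M (blue, above) and MR (red, below) along each annotated gene (black line), in kb from its annotated 5′ end in the direction of transcription. Plekhm1, Snx10, Rab7, Rab3d and Vps35 are covered from end to end in both libraries. Rab13 starts 5130 bases inside the annotated gene, before its nearest annotated transcript start, and Rab27a stops 1636 bases early in MR. Rab44 is split into 2 loci in M and 3 in MR, Rab38 is covered in MR alone, and Syt7 in neither.

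Syt7, a calcium sensor for lysosome exocytosis, is the last of the set. The gene is on chromosome 19 at 10389090-10453180 (+ strand, 7487 exon bases), and assembly gave no locus there in M or MR. It was thus not detected at this depth by assembly, which leaves reads too few to assemble uncounted. In its family of 20 synaptotagmins and extended synaptotagmins 7 had a value. Esyt1, which joins the endoplasmic reticulum to the plasma membrane, was the most abundant in both libraries, at 388.8 in M against 100.5 in MR. Esyt2 had 13.8 and 44.6, a log2 ratio of 1.62 by TPM and 0.05 by coverage.

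The SNAREs that carry out the last step, fusion, and the exocyst that tethers vesicles to the plasma membrane were described in the same way. Of 20 SNARE genes and partners 19 had a value, with a median of -0.10. Of the 19, 0 were above 1 and 2 below -1, beside 21.3% and 13.2% of all genes. Stxbp2 and Snap23, of the fusion machinery at the plasma membrane, had a TPM of 82.8 and 43.1 in M and of 144.6 and 75.5 in MR. Stx8, a late endosomal SNARE, had 90.3 and 42.6. Stx3, of the plasma membrane, had 41.1 and 12.0, with a log2 ratio of -1.69 by TPM and -0.78 by coverage. Of 9 exocyst genes, with a median of 0.24, 2 (22.2%) were above 1, beside 21.3% of all genes. The 2 were Exoc6b, at 14.0 and 41.2, and Exoc8, which was listed at 0 in M and had 7.78 in MR.

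**Figure D4:**
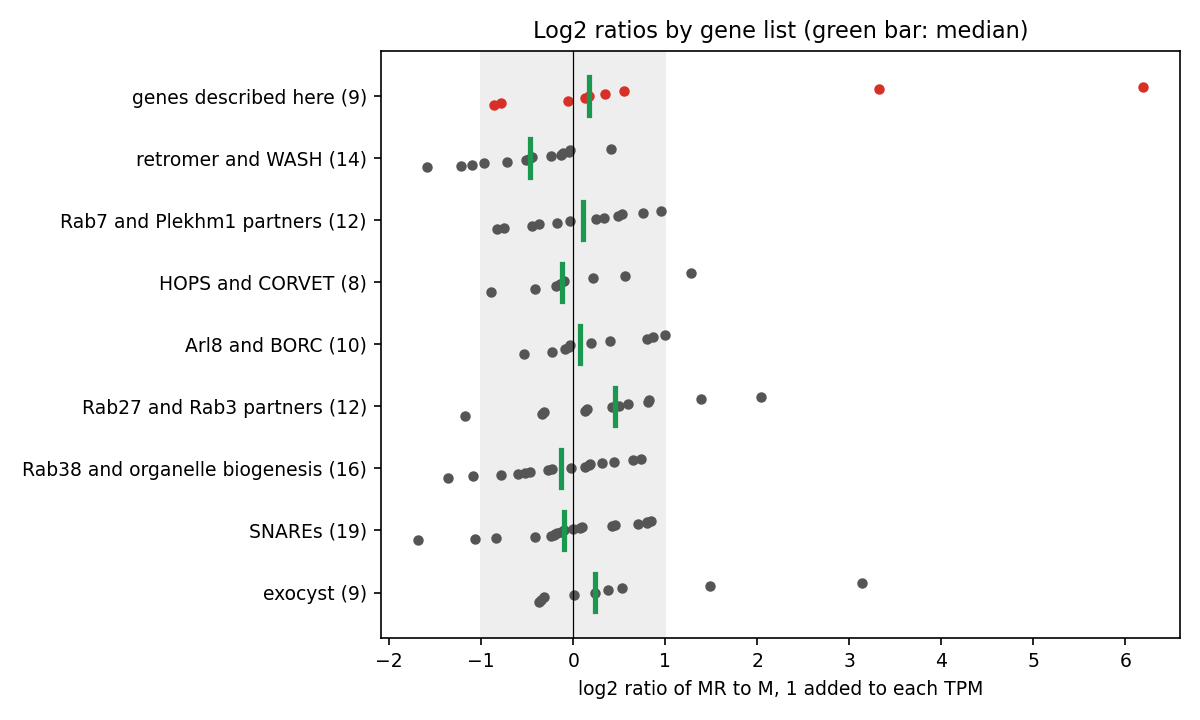
Log2 ratio of MR to M for each gene with a value (points) in the set described here and in 8 lists of its pathway, with the number of genes in brackets, the median as a green bar and the band from -1 to 1 in grey. Rab38 (6.20) and Snx10 (3.33) lie furthest to the right, followed by Exoc8 (3.13), and the retromer list has the lowest median (-0.47).

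Within the Rab family, the levels of the 6 genes of the set spanned nearly the whole range. Of 61 Rab genes 49 had a value. Of these 8 (16.3%) were above 1 and 9 (18.4%) below -1, beside 21.3% and 13.2% of all genes. The median of the Rab genes was 0.05, and it was -0.06 after median-of-ratios scaling. Rab7 was 1st in both libraries, Rab13 28th in M and 29th in MR, Rab3d 31st and 32nd, and Rab44 35th in both. Rab5c, of early endosomes, followed Rab7 at 454.3 in M against 366.3 in MR, so that the pair was nearly level in M and apart in MR. Rab7b, a relative of Rab7 on endosomes and the Golgi, had 272.2 in M against 50.2 in MR, a log2 ratio of -2.41 by TPM and -3.29 by coverage, opposite in sign to that of Rab7. Rab8b had 205.8 and 40.9. Rab34, of lysosome positioning, had 9.48 and 47.4, and Rab10 had 105.7 and 233.7, although Rab10 turned to -0.53 when the locus with the most exon bases was read alone.

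**Figure D5:**
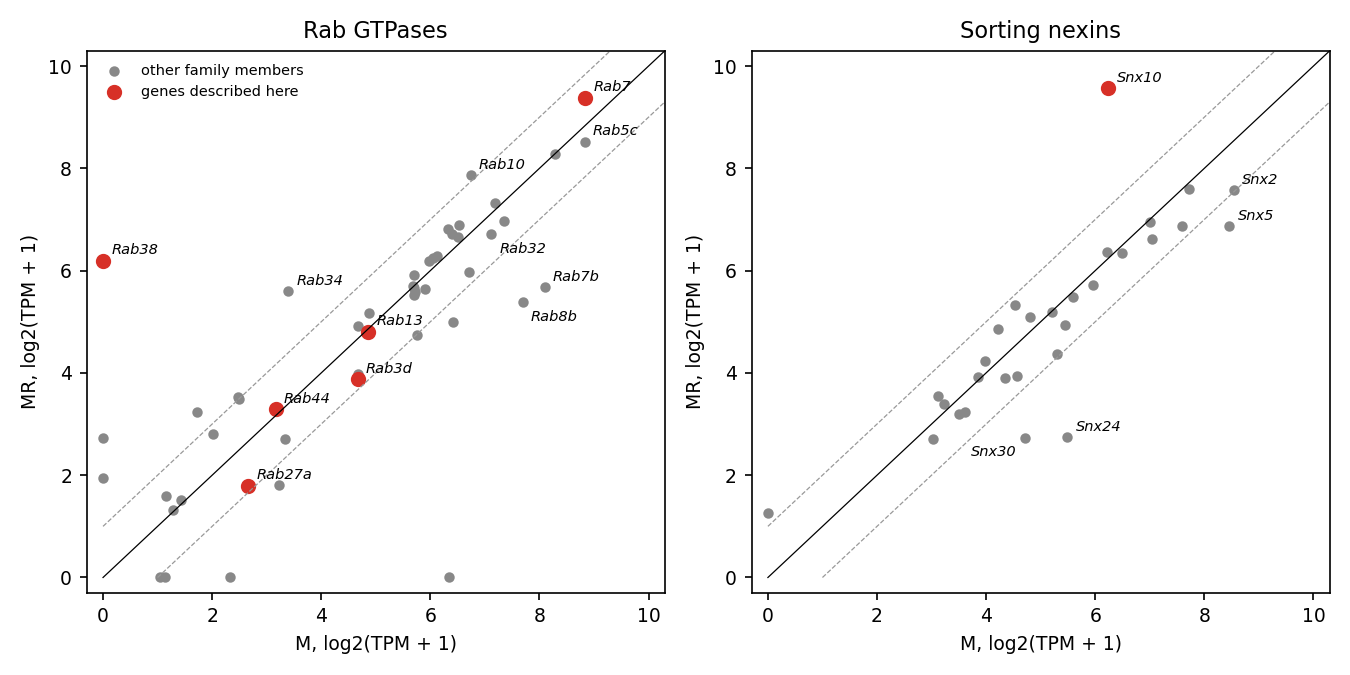
Level in MR against level in M, both as log2(TPM + 1), for 49 Rab genes (left) and 29 sorting nexins (right), with the genes described here in red. The solid line marks equal levels and the dashed lines a log2 ratio of 1 and -1. Rab38 lies on the vertical axis and Rab7 at the upper end of the line, and Snx10 lies above the dashed line and above every other sorting nexin in MR.

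Over the 11 lists together, 172 genes outside the set had a value. Of these 16 (9.30%) were above 1 and 21 (12.2%) below -1, beside 21.3% and 13.2% of all genes, and their median log2 ratio was -0.04. Among sorting nexins other than Snx10, Snx24 had 43.9 in M against 5.70 in MR and Snx30 had 25.1 and 5.65, both below -1, with -1.92 and -1.82 by coverage.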

How the data were processed

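The authors trimmed the paired reads with Trim Galore, aligned them to mm10 (GRCm38) and ran StringTie; FastQC and SAMtools are also named in the submitters' processing notes. The deposited tables list for each entry a coverage (read depth per base, a signal with no library scaling), a TPM and an FPKM, all computed by the authors. The deposited TPM was treated as a score, since the assembled loci alone sum to 1000000 and the entries with gene names add 87234 in M against 129264 in MR. Those entries carry positions of GENCODE vM27, which are on another build (GRCm39), and were not used for values.

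Each of the 19422 loci assembled in M and 19922 in MR went to the GENCODE vM21 gene of which it held most exon bases, with a minimum of 50 and no conflict of strand, and TPM was summed per gene. Where 50% or more of the exon bases of a further coding gene fell in a locus, it was shared. Shared loci count in gene lists and not in the counts over all genes. Of the genes with a locus, 14416 had their own, 353 shared and 101 lay inside that of another gene and got no value. Log2 ratios used a pseudocount of 1 and genes that reached a TPM of 1 in M or MR, so they understate differences of low genes. The threshold was a log2 ratio of 1 in either direction. Read pairs were estimated from FPKM, the aligned Gb (read from the commonest quotient of coverage and FPKM) and transcript length, with 300 bases per pair. The length was that of the shortest coding transcript of the gene, for example 694 bases for Rab3d. Where longer transcripts were read, the estimate is too low and the counting interval too wide. The 95% Wilson intervals of the ratios cover counting error only. The assignment was tested on simulated loci, each over nearly the whole extent of a coding gene. Split or partial loci, such as those of Rab44, Rab13 and Rab27a, were not simulated, so the test does not cover them.

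No p-value was computed, since each condition has 1 library. The members and gene lists were chosen with earlier results of these data known. Named are the 10 genes, of each list up to 4 genes at either end of the log2 ratios among those with a TPM of at least 10, Rab, synaptotagmin and sorting nexin genes with a TPM in MR above that of a member of their family, and markers. Vps26a, Vps29, Washc3, Mon1a, Rph3al, Rims2 and Exoc8 were named in addition, as partners or as the whole of a count, after their values were seen. Alternatives were a pseudocount of 0.1, FPKM, median-of-ratios scaling (11854 genes), TPM after removal of mitochondrial genes and of the top 20 genes, coverage per aligned Gb, the locus with the most exon bases alone, loci on the strand of the gene alone, no filter or a TPM of at least 10, a log2 threshold of 2, and genes with a locus of their own alone. Promoters came from RefSeq (GRCm38.p6). Protein sequences were not analysed here, apart from the search for the Rab stretch in the translated coding bases. Scripts ran in Python 3.11.15 with matplotlib 3.10.9, scipy 1.17.1, pandas 2.3.3 and numpy 2.4.6.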

Additional observations from a re-analysis of the deposited data

How the results depend on the processing

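No paired analysis was possible because each condition has 1 library, and for the same reason no library could be left out. Of 63 values of the 9 genes under the alternatives, 53 stayed within the counting interval of their ratio and 10 moved beyond it. Loci on the strand of the gene alone gave the main value for all 9 genes, and the locus with the most exon bases changed Rab44 alone. The interval of Rab38 has no upper end, so a higher value could not count as moved. The 53 thus overstate how far the values hold. The median log2 ratio of the 9 genes was -0.0242 with median-of-ratios scaling and 0.0666 after removal of mitochondrial genes and of the top 20 genes, which follows from the rescaling of all genes. With median-of-ratios scaling the median was lower in each of the 11 lists, to -0.66 for the retromer list, -0.29 for the SNAREs and -0.33 for the sorting nexins, and it turned from 0.11 to -0.08 for the partners of Rab7 and Plekhm1, from 0.08 to -0.10 for Arl8 and BORC, and from 0.05 to -0.06 for the Rab genes. By coverage per aligned Gb the median of the regulators of Rab7 and partners of Plekhm1 was -0.17, and the cause was not tested. With a TPM of at least 10, 2580 genes were past the threshold of 1 (1599 higher and 981 lower), since fewer were tested, and with a threshold of 2 there were 1476 (956 higher and 520 lower). Depth limits Syt7, with no locus, and Rab38, with about 185 read pairs in MR and none in M. Rab27a, Rab3d, Rab13 and Rab44 had an estimated 33 to 175 read pairs per library. The estimate uses the shortest coding transcript and is too low where longer transcripts were read.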

Other observations

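Near the genes described above, 3 assembled loci in M or MR had too few exon bases of any gene to be assigned. In MR a locus on the + strand of chromosome 11 at 103412803-103413773 (GRCm38) began 116 bases from the 5′ end of Plekhm1, which lies on the opposite strand, with a TPM of 1.37 and a coverage of 1.81. No such locus was assembled in M. In M a locus in an intron of Rab7 on the same strand, on chromosome 6 at 88017521-88019449, had a TPM of 0.325. In MR a locus within Rab44, on chromosome 17 at 29138594-29138872, had a TPM of 0.754.

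Among the lower Rab genes, Rab22a, of early endosomes, had a TPM of 84.7 in M against 30.9 in MR, a log2 ratio of -1.42. Rab4b, of recycling endosomes, had 80.6 in M and was listed at 0 in MR, and its locus in M was shared with Gm21983. Cracr2a, a large Rab-related protein with EF-hands like Rab44, had 4.53 in M against 10.6 in MR, a log2 ratio of 1.06 that was -0.78 when its locus with the most exon bases was read alone. Borcs6, a subunit of BORC, had 13.2 and 27.3, a log2 ratio of 0.99, and Vti1b, a late endosomal SNARE, had 119.0 and 194.8.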
